A study of Mus musculus with 2 samples.

Results

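The genes described here encode the cellular machinery of N6-methyladenosine (m6A), the methyl mark that is placed on adenosines inside messenger RNA. They were taken as a fixed list of symbols, matched to the Ensembl identifiers of the count table through GENCODE release M21. All 10 listed genes were found among the 55421 genes of the table. They are 5 writer genes (Mettl3, Mettl14, Wtap, Zc3h13 and Cbll1), 4 reader genes (Ythdf1, Ythdf2, Ythdf3 and Ythdc1) and 1 eraser gene (Alkbh5). Polyadenylated RNA was sequenced from Ago1 knockout mouse embryonic stem (ES) cells of the E14 line, with a 129/Ola background, grown on gelatin in medium with 15% serum and 100 U/ml of leukaemia inhibitory factor. The 2 libraries are called KO2 and KO1 after the labels, and both are labelled as knockout cells. They form 1 group, and no unmodified control was used here. The labels do not tell whether they are different clones or cultures, so technical and biological spread cannot be told apart. The data therefore give the level of each m6A gene in the knockout cells and the difference between the duplicates, and no effect of losing Ago1.

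Writers work as a nuclear complex. METTL3 carries the catalytic site, METTL14 pairs with it and helps to hold the RNA, and the associated proteins WTAP, ZC3H13 and CBLL1 (also called HAKAI) place and stabilise the pair. Readers recognise the mark through a YTH domain, the YTHDF proteins mainly in the cytoplasm, where they affect decay and translation, and YTHDC1 in the nucleus. ALKBH5 removes the mark by oxidation. In mouse ES cells the pathway is known for limiting the lifetime of pluripotency transcripts, and cells without METTL3 exit naive pluripotency poorly.

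Total counts were 54408708 in KO2 and 57048330 in KO1. A count of 0 allows up to 0.0549 counts per 1000000 (CPM) in KO2 and 0.0528 CPM in KO1, with 3 counts as the limit, and all intervals and limits here cover counting error only. Ago1 itself kept 452 counts in KO2 and 1497 in KO1, which is 8.27 CPM in KO2 and 26.4 CPM in KO1 (log2 ratio KO2 over KO1 -1.67), and gene counts do not locate these reads within the transcript. All 8 ES cell markers, among them Pou5f1 and Nanog, were detected, that is, both libraries reached 1 CPM, as for 55.3% of protein-coding genes. Their summed levels were 6112 CPM in KO2 and 5951 CPM in KO1. Of 8 fibroblast markers 2 were detected (Thy1 and Pdgfrb), the summed levels were 30.5 CPM in KO2 and 25.5 CPM in KO1, and Lum and Postn had 0 counts in both. All 4 primitive endoderm markers were detected, at 24.3 CPM in KO2 and 19.7 CPM in KO1 in sum. None of 6 skeletal muscle genes was detected, at 1.48 CPM in sum in KO2 against 10.2 CPM in KO1. In KO1 each reached 1 CPM, from 1.21 CPM for Myl1 to 2.08 CPM for Acta1, and in KO2 none did. All 6 were lower in KO2 with the interval wholly beyond 2-fold. Of all 15619 genes tested 12 were, these 6 among them. The muscle list was chosen with earlier results of these data known, so its shared direction is no separate result. The part of these genes in the results below was not tested.

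The sequences of the catalytic pair show how a writer subunit differs from its partner at the active site. Both stretches are coding sequence of GENCODE release M21, 5′ to 3′, with 54 bases each. Capitals mark the codons of the Asp-Pro-Pro-Trp motif, which is required for catalysis in Mettl3, and of the Glu-Pro-Pro-Leu motif found at the matching place in Mettl14, whose own site is inactive.
Mettl3: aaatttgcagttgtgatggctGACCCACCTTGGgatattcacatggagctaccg
Mettl14: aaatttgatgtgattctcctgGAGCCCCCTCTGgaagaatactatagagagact
The motif began at codon 395 of 580 in Mettl3 and at codon 192 of 456 in Mettl14. The longest run of identical bases anywhere in the coding sequences of this pair was 11 bases.

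The cytoplasmic readers are close relatives, so their transcripts were compared for stretches in which a read could not be placed. The longest run shared by the coding sequences of Ythdf1 and Ythdf2 was 22 bases, shown here in capitals with 15 bases on either side.
Ythdf1: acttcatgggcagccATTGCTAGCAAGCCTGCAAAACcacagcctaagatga
Ythdf2: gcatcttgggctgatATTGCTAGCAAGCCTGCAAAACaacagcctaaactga
Ythdf3 shared at most 17 bases with either relative. The run shared by Ythdf1 and Ythdf3 is printed for each below, again in capitals.
Ythdf1: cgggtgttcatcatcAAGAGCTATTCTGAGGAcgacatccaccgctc
Ythdf3: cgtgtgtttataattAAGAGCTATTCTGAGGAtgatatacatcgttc
No window of 50 bases in the coding transcript of one YTHDF gene was found in that of another. Windows of that length were shared with other genes for 8.55% of Ythdf2, with the pseudogenes Gm6823 and Gm8401, which had 0 and 1 counts in KO2 and 6 and 2 counts in KO1.

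Among the other members, 18.05% of the windows of Wtap were shared with 4 pseudogenes, of which Gm14292 had 374 counts in KO2 and 480 in KO1. For Ythdc1 20.1% of the windows of its coding transcript were shared with Gm43055, which lies on the same strand and had 0 counts in both libraries. Of all exonic bases of Ythdc1 in union, 4.62% lay under exons of Gm43055. On the opposite strand, 18.4% of the exonic bases of Mettl3 lay under exons of Tox4, a gene with 5674 counts in KO2 and 6403 in KO1, and 17.6% of those of Cbll1 lay under Gm29542, with 2 counts in KO2 and 6 in KO1. The labels describe a reverse-stranded protocol, but the sources used here do not give the rule for shared or overlapping reads. The values of Wtap, Ythdf2, Ythdc1, Mettl3 and Cbll1 carry this uncertainty. Alkbh5 shared 0.282% of its windows with other genes on the same strand, and Mettl14, Zc3h13, Ythdf1 and Ythdf3 shared none. The windows cover only the transcript with the longest coding sequence of each gene. For Mettl14 it has 2741 bases, against 7419 exonic bases in union, and the remaining exonic bases were not searched.

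All 10 members were detected. The same limit of 1 CPM in both libraries was met by 24.1% of all genes in the table, by 45.1% of genes with a count and by 55.3% of protein-coding genes. All 10 members also reached 10 CPM in both libraries, a limit for which no share of all genes was taken. Together the members took 57660 counts in KO2 and 68672 in KO1, which were 0.106% and 0.120% of the totals. Levels of different genes are compared below only per length, as transcripts per 1000000 (TPM), computed from the union of each gene's exons and scaled by trimmed mean of M values (TMM) factors. On this scale the median member lay at the 78.0th percentile of the 13347 detected genes, and Mettl14, the lowest, at the 54.0th. Percentiles are descriptions of a list that was chosen for its function.

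Within the catalytic pair, Mettl3 was at 26.0 TPM in KO2 and 26.8 TPM in KO1 (26.4 ± 0.579 TPM, SD, n = 2). Mettl14 was at 20.2 TPM in KO2 and 24.4 TPM in KO1 (22.3 ± 2.97 TPM). Mettl3 stood above Mettl14 in both libraries without overlap, and with exon-union length the pair held the lowest levels of the 10 genes. The ratio of Mettl14 to Mettl3 on the TPM scale was 0.776 in KO2 and 0.908 in KO1 (0.842 ± 0.0939). The pair's place and this ratio depended on the length taken for the genes, because the exons of Mettl3 span 5076 bases in union while its longest transcript has 2159, and the figures for Mettl14 are 7419 and 7197. With the longest transcript the ratio was 0.369, so the pair's balance is given only with its length definition. Mettl3 (ENSMUSG00000022160) lies on the minus strand of chromosome 14 from 52294841 to 52305128 in GRCm38, with 15 annotated transcripts, and Mettl14 (ENSMUSG00000028114) on the minus strand of chromosome 3 from 123368297 to 123386108, with 5.

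With exon-union length the associated writer genes were all higher than the catalytic pair, but with the longest transcript Mettl3 (46.7 TPM) lay above Zc3h13 (43.1 TPM) and Cbll1 (33.3 TPM). With the coding transcript both Mettl3 (42.7 TPM) and Mettl14 (38.8 TPM) lay above Zc3h13 (37.0 TPM) and Cbll1 (28.9 TPM). The values that follow use the exon union. Wtap, whose product brings the pair to nuclear speckles, was at 66.8 TPM in KO2 and 85.8 TPM in KO1 (76.3 ± 13.4 TPM, SD, n = 2). Zc3h13, which in mouse ES cells keeps the complex in the nucleus, was at 53.6 TPM in KO2 and 58.6 TPM in KO1 (56.1 ± 3.49 TPM). Cbll1, which encodes a RING-finger protein first described as an E3 ubiquitin ligase, was at 39.9 TPM in KO2 and 47.4 TPM in KO1 (43.7 ± 5.29 TPM). The values of these 3 genes did not overlap, with Wtap above Zc3h13 and Zc3h13 above Cbll1 in both libraries. Wtap (ENSMUSG00000060475) lies on chromosome 17 from 12966796 to 12994169, Zc3h13 (ENSMUSG00000022000) on chromosome 14 from 75284373 to 75344426 and Cbll1 (ENSMUSG00000020659) on chromosome 12 from 31484829 to 31499616.

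The 4 reader genes included the member with the highest level. Ythdf1, described mainly as promoting translation of marked mRNA, was the highest member at 185.9 TPM in KO2 and 212 TPM in KO1 (199 ± 18.5 TPM, SD, n = 2). Ythdf3, which acts together with its relatives, was at 96.5 TPM in KO2 and 127 TPM in KO1 (112 ± 21.5 TPM). Ythdf2, which recruits the CCR4-NOT deadenylase to marked mRNA, was at 85.3 TPM in KO2 and 104 TPM in KO1 (94.7 ± 13.2 TPM). Ythdf1 lay above the other YTHDF genes in both libraries, while Ythdf3 was above Ythdf2 within each library but its value in KO2 lay below that of Ythdf2 in KO1. Of the summed YTHDF level, Ythdf1 held 50.5% in KO2 and 47.9% in KO1, Ythdf3 held 26.3% in KO2 and 28.7% in KO1, and Ythdf2 held 23.2% in KO2 and 23.5% in KO1.

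Ythdc1, the nuclear reader, was the lowest reader at 32.3 TPM in KO2 and 39.1 TPM in KO1 (35.7 ± 4.84 TPM, SD, n = 2). Its exons span 13651 bases in union, whereas its longest transcript has 6313 bases and the transcript with its longest coding sequence 2960. Its level was 58.0 TPM with the longest transcript and 106 TPM with the coding transcript. The place of Ythdc1 among the members therefore rests on the length used. Ythdc1 (ENSMUSG00000035851) lies on chromosome 5 from 86804221 to 86836659, Ythdf1 (ENSMUSG00000038848) on chromosome 2 from 180904377 to 180920949, Ythdf2 (ENSMUSG00000040025) on chromosome 4 from 132184912 to 132212303 and Ythdf3 (ENSMUSG00000047213) on chromosome 3 from 16183212 to 16217037.

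Alkbh5, the eraser, was at 68.1 TPM in KO2 and 72.1 TPM in KO1 (70.1 ± 2.85 TPM, SD, n = 2). It overlapped with Wtap and lay above Zc3h13. Fto, which encodes the other demethylase linked to m6A, was at 14.9 TPM in KO2 and 13.5 TPM in KO1, so Alkbh5 stood 4.57-fold above Fto in KO2 and 5.33-fold in KO1 on the TPM scale with exon-union length. The exons of Fto span 13031 bases in union against 4707 in its longest transcript, and with the longest transcripts the ratio was 1.73-fold in KO2 and 2.01-fold in KO1. With the coding transcripts it was 1.31-fold in KO2 and 1.52-fold in KO1. Alkbh5 (ENSMUSG00000042650) lies on chromosome 11 from 60536381 to 60558512.

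**Figure D1:**
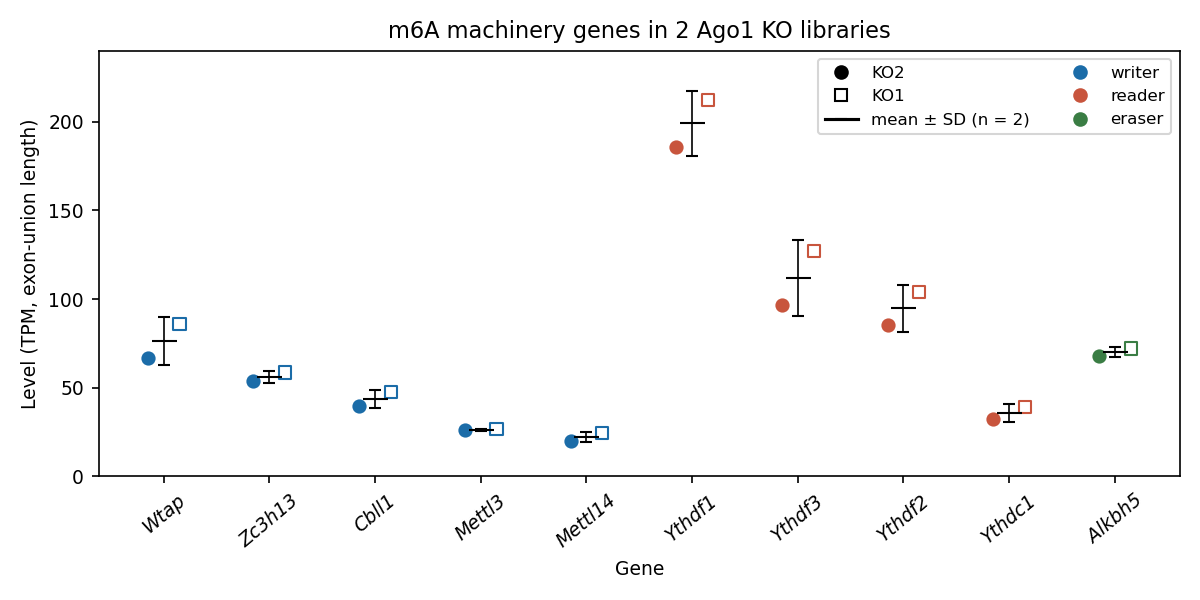
Level of each m6A gene in TPM (exon-union length) on the vertical axis, with KO2 as filled circles, KO1 as open squares and the mean ± SD of both as bars, coloured by role. Ythdf1 stood highest at 199 TPM and Mettl14 lowest at 22.3 TPM. Every gene lay lower in KO2 than in KO1 on this scale, a count for which no share of all genes was taken. In CPM 9 of the 10 did, and Mettl3 was at 39.02 CPM in KO2 and 38.8 CPM in KO1.

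In descending order the mean TPM ran Ythdf1, Ythdf3, Ythdf2, Wtap, Alkbh5, Zc3h13, Cbll1, Ythdc1, Mettl3 and Mettl14. Of the 9 neighbouring pairs, 6 had values that did not overlap between the libraries. The 3 that overlapped were Ythdf3 with Ythdf2, Ythdf2 with Wtap, and Wtap with Alkbh5. Within each library Ythdf3 stood above Ythdf2 and Ythdf2 above Wtap, whereas Wtap lay below Alkbh5 in KO2 and above it in KO1. By role, readers summed to 400.0 TPM in KO2 and 482 TPM in KO1, and writers to 206 TPM in KO2 and 243 TPM in KO1. Readers thus held 59.3% of the members' summed level in KO2 and 60.5% in KO1, and writers held 30.6% in KO2 and 30.5% in KO1.

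The order of the means changed with gene length. It held under other library scalings, but these apply the same factor to every gene of a library, so the order within a library could not change. With the longest transcript, Wtap came second at 112 TPM, Mettl3 stood at 46.7 TPM, above Zc3h13 at 43.1 TPM, and Mettl14 was lowest at 17.2 TPM. With the length of the transcript carrying the longest coding sequence, Wtap was at 149 TPM, Ythdc1 at 106 TPM and Cbll1 lowest at 28.9 TPM. Ythdf1 had the highest mean under all 3 lengths, at 199, 156 and 187 TPM in the order exon union, longest transcript and coding transcript. Gene counts do not show which transcripts were made, so no one length can be preferred from them.

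**Figure D2:**
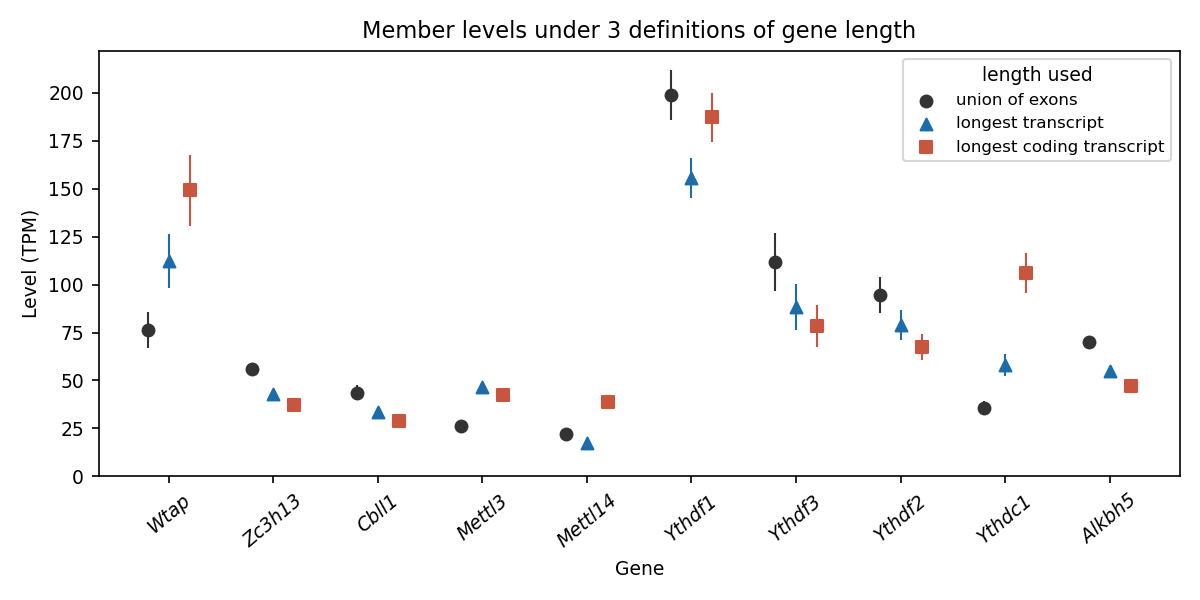
Mean level in TPM of each m6A gene under 3 definitions of gene length, with the lines spanning KO2 and KO1. The levels of Ythdc1 (35.7, 58.0 and 106 TPM) and Wtap (76.3, 112 and 149 TPM) differed between the lengths by the most TPM, and Ythdf1 stayed above the other genes.

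Between the duplicates, the members differed little in size. For each of the 15619 genes whose counts summed to 50 or more, KO2 was set over KO1 after TMM scaling, with an exact conditional binomial 95% interval on the ratio. None of the 10 members had its whole interval beyond 2-fold, beside 1.06% of all genes tested, and none beyond 1.5-fold, beside 0.205% of genes for lower and 6.40% for higher values in KO2. With 1 library on each side this is a rule of size with no replicate check, and no p-value is given.

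Small differences were resolved at this depth, and they ran one way. For 8 of 10 members the whole interval lay below 0, that is lower in KO2, beside 31.2% of all genes tested, and for none above 0, beside 34.3%. The members' median log2 ratio was -0.21, against 0.01 over all genes tested. The lowest ratio was that of Ythdf3, with 153 CPM in KO2 and 194 CPM in KO1 and a log2 ratio of -0.34 (95% interval -0.38 to -0.30). Wtap followed, with 123 CPM in KO2 and 153 CPM in KO1 and a log2 ratio of -0.31 (-0.36 to -0.26). Mettl3, at 39.02 CPM in KO2 and 38.8 CPM in KO1, and Alkbh5, at 121 CPM in KO2 and 123 CPM in KO1, were the members whose intervals covered 0, with log2 ratios of 0.01 (-0.08 to 0.09) and -0.03 (-0.08 to 0.02). Relative to its mean, the SD between the libraries on the TPM scale ran from 2.19% for Mettl3 to 19.2% for Ythdf3, beside a common biological coefficient of variation of 0.193 that edgeR estimated over the detected genes, as a fraction of the mean.

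The ratio moved with the GC content of the transcripts. Across 15603 genes the log2 ratio KO2 over KO1 and the GC content of the longest transcript had a Spearman correlation of 0.811, as a description over genes of the same 2 libraries, and across the 10 members it was 0.806. The members had a median GC content of 43.6%, against 49.6% for all genes tested. Ythdc1, Ythdf3, Wtap, Cbll1 and Mettl14 had 37.6%, 38.4%, 39.6%, 40.02% and 41.2%, and all 5 had log2 ratios between -0.34 and -0.20. Mettl3, Ythdf1, Alkbh5 and Zc3h13, at 49.1% to 50.1%, had log2 ratios from -0.14 to 0.01. Ythdf2 stood between these groups in GC content, at 46.1%, with a log2 ratio of -0.23.

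**Figure D3:**
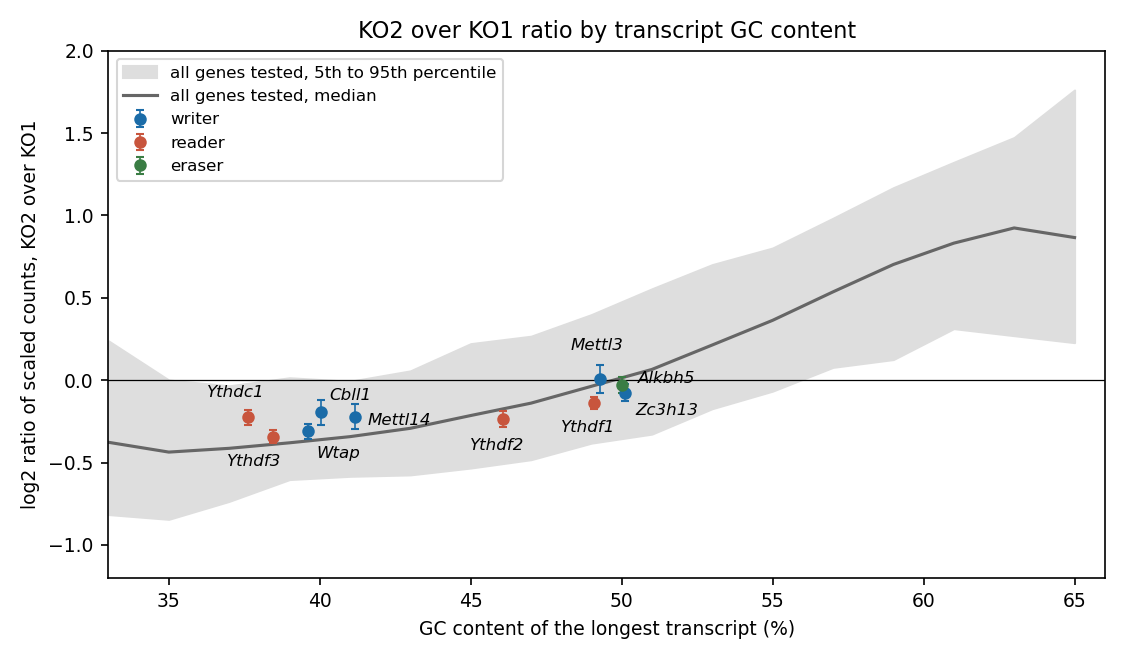
Log2 ratio of scaled counts, KO2 over KO1, against the GC content of the longest transcript, with members as points with 95% counting intervals and all genes tested as the median line and the band from the 5th to the 95th percentile in bins of GC content. The 5 members of lowest GC content (37.6% to 41.2%) lay lower than Mettl3, Alkbh5, Zc3h13 and Ythdf1.

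Once the GC trend had been removed from the log2 ratios by a loess fit, the members no longer ran one way. Their median was 0.04, against -0.01 over all genes tested. The corrected interval lay above 0 for 4 members, beside 19.8% of genes, below 0 for 3, beside 20.5%, and covered 0 for the other 3. No member lay beyond 2-fold, beside 0.263% of genes. The 4 whose direction turned were Ythdc1 at 0.17 (0.13 to 0.22), Cbll1 at 0.16 (0.08 to 0.23), Mettl14 at 0.10 (0.03 to 0.18) and Wtap at 0.05 (0.01 to 0.10). Ythdf1 at -0.11 (-0.15 to -0.07), Zc3h13 at -0.10 (-0.15 to -0.05) and Ythdf2 at -0.07 (-0.12 to -0.02) stayed lower in KO2 both ways. These counts are for a loess span of 0.3. At a span of 0.6 the corrected interval lay above 0 for 5 members and below 0 for 4. No share of all genes was taken at that span.

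**Figure D4:**
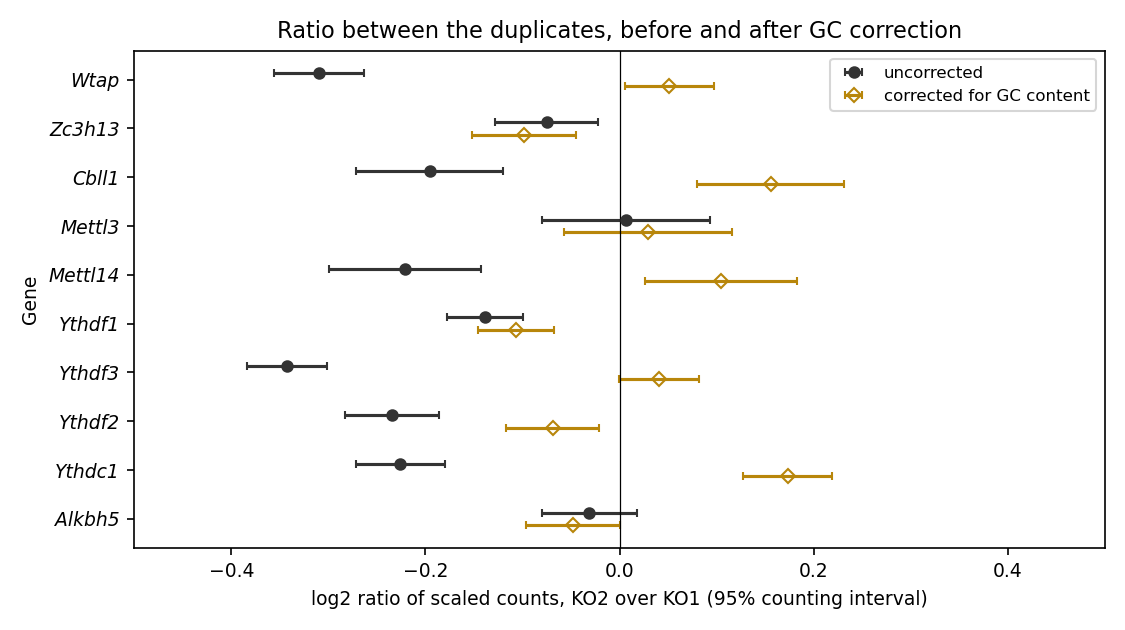
Log2 ratio of scaled counts, KO2 over KO1, for each m6A gene before (filled circles) and after (open diamonds) correction for GC content, with 95% counting intervals. Before correction 8 of 10 intervals lay below 0, and after it 3 lay below and 4 above.

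The further genes of the pathway were listed by function. Virma, Rbm15 and Rbm15b encode further subunits of the m6A complex, and Zfp217 a zinc finger protein that binds METTL3. All 4 were detected, beside 55.3% of protein-coding genes. Virma, which encodes the large scaffold of the complex, was at 43.6 TPM in KO2 and 55.6 TPM in KO1, and Rbm15, which brings the complex to its RNAs, at 43.5 TPM in KO2 and 53.3 TPM in KO1. Rbm15b, its relative, was the lowest at 30.6 TPM in KO2 and 27.03 TPM in KO1. The place of these 4 genes among the writers rests on the length used. Mettl3 stood at 26.4 TPM with the exon union and 46.7 TPM with the longest transcript. With exon-union length all 4 lay, by mean TPM, between Wtap, the highest writer, and Mettl3. None of them had an interval beyond 2-fold between the libraries, beside 1.06% of all genes tested. Before the GC correction 2 intervals lay above 0, beside 34.3% of all genes, and 2 below, beside 31.2%. After the correction none lay above 0, beside 19.8%, and 2 lay below, beside 20.5%. The median log2 ratio was -0.08 before and -0.06 after, and Rbm15b turned, with 0.23 (95% interval 0.16 to 0.30) before and -0.26 (-0.33 to -0.19) after.

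Other enzymes methylate adenosines of different RNAs or at different positions, and the list for them also holds Trmt112. All 5 listed genes were detected, beside 55.3% of protein-coding genes. Trmt112, encoding a partner of several methyltransferases including METTL5, was at 81.5 TPM in KO2 and 49.2 TPM in KO1. Mettl5, which methylates 18S ribosomal RNA, was at 44.9 TPM in KO2 and 55.7 TPM in KO1. With exon-union length Zcchc4, which methylates 28S ribosomal RNA, was the lowest at 10.1 TPM in KO2 and 11.7 TPM in KO1. This place rests on the length used. The exons of Zcchc4 span 10897 bases in union against 5743 in its longest transcript. For Pcif1, also of this list, the figures are 6544 and 5772. Trmt112 had the highest log2 ratio of the 5, at 0.78 (95% interval 0.67 to 0.90) before and 0.34 (0.23 to 0.46) after the GC correction, with a transcript GC content of 55.8%. It lay beyond 1.5-fold but not 2-fold, beside 6.40% of all genes tested beyond 1.5-fold higher in KO2. No gene of the list lay beyond 2-fold, beside 1.06% of all genes tested.

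Proteins outside the YTHDF group also bind m6A RNA or RNA whose structure the mark has opened. All 10 listed genes of this kind were detected, beside 55.3% of protein-coding genes. Hnrnpa2b1 was the highest at 751 TPM in KO2 and 930.1 TPM in KO1, followed by Hnrnpc at 692 TPM in KO2 and 832 TPM in KO1. Rbmx was the lowest at 7.25 TPM in KO2 and 8.21 TPM in KO1. None lay wholly beyond 2-fold between the libraries, beside 1.06% of all genes tested. The median log2 ratio was -0.10 before and 0.08 after the GC correction. Prrc2a, named after its values were seen, lay beyond 1.5-fold higher in KO2, beside 6.40% of all genes tested. It had 418 CPM in KO2 and 211 CPM in KO1, at a transcript GC content of 60.6%. Its log2 ratio was 0.99 (95% interval 0.96 to 1.02) before and 0.17 (0.13 to 0.20) after the correction. Each of these proteins also binds RNA in other ways, so their level is not a level of m6A reading.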

How the data were processed

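For the 2 Ago1 KO libraries the authors deposited raw counts per gene as whole numbers. The submitters' processing notes name GRCm38. Aligner, counting program and annotation release: not given in the sources used here. Of 55421 identifiers 55240 matched GENCODE release M21, and the other 181 held 0.00416% of the counts.

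CPM used TMM factors from edgeR 4.0.16 in R 4.3.3. TPM divided counts by the union of exons and was scaled by the same factors. Neighbours in the order of levels were called apart where their values in the 2 libraries did not overlap. The ratio used a prior count of 0.5, and GC correction a loess fit with span 0.3 (statsmodels 0.14.6). Shared windows were searched in all GENCODE transcripts on both strands. Intervals came from scipy 1.17.1, tables from pandas 2.3.3 and numpy 2.4.6 under python 3.11.15, and figures from matplotlib 3.10.9. The ratio rule was tested on simulated data.

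Members, lists, alternatives and the rule for naming genes (all members, and of each further list its 2 highest and its lowest by TPM plus any beyond 2-fold) were chosen with earlier results of these data known, the muscle list among them.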

Additional observations from a re-analysis of the deposited data

How the results depend on the processing

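No paired analysis was possible because both libraries belong to 1 group. All 10 members were detected, and 0 lay beyond 2-fold, under every alternative tried for these counts. Many of these could not change the counts. The detection limits, up to 10 CPM, lay below the lowest member value, 38.8 CPM for Mettl3 in KO1. The 3-fold rule and the other limits on summed counts could not raise the 0. Gene length moved the levels: of 10 members, 2 kept their rank with the longest transcript and 1 with the coding transcript, a length chosen after seeing the data, and 3 with CPM unscaled for length, which does not compare genes. The ratio of Mettl14 to Mettl3 was 0.369 with the longest transcript and 1.23 in CPM. The shares of Ythdf1, Ythdf2 and Ythdf3 were 39.1%, 25.6% and 35.3% in CPM and 56.3%, 20.3% and 23.4% with the coding transcript, and that of Ythdf2 was 24.4% with the longest transcript. Writers, readers and eraser held 36.7%, 55.3% and 8.03% with the longest transcript, 33.4%, 55.8% and 10.8% in CPM and 37.9%, 56.1% and 6.06% with the coding transcript.

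With each library alone, 8 to 10 members kept their rank, the Mettl14 to Mettl3 ratio ran from 0.776 to 0.908, the shares of Ythdf1 from 47.9% to 50.5%, of Ythdf2 from 23.2% to 23.5% and of Ythdf3 from 26.3% to 28.7%, those of writers from 30.5% to 30.6%, readers from 59.3% to 60.5% and eraser from 9.05% to 10.1%, and detected members from 10 to 10. With 2 libraries each lies within 1 SD of the mean by construction.

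The median log2 ratio of the members was -0.26 with DESeq2 1.42.0 size factors, which came out as 1 for both libraries and left them unscaled, 0.035 with the GC correction at span 0.3 and 0.034 at span 0.6. Single ratios that turned were, at spans 0.3 and 0.6, Mettl14 at 0.10 and 0.10, Wtap at 0.051 and 0.054, Cbll1 at 0.16 and 0.16 and Ythdc1 at 0.17 and 0.19, and Ythdf3 at 0.053 at span 0.6 only. Beyond the correction's own construction, the cause of the GC relation was not tested.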

Other observations

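Genes that supply the methyl donor were well expressed. All 4 listed genes were detected, beside 55.3% of protein-coding genes. Mat2a, which makes S-adenosylmethionine, led at 401 TPM in KO2 and 501 TPM in KO1. Ahcy, which clears the spent donor, was at 176 TPM in KO2 and 136 TPM in KO1. Mtr, encoding methionine synthase, was the lowest at 39.9 TPM in KO2 and 48.5 TPM in KO1. None lay beyond 2-fold between the libraries, beside 1.06% of all genes tested, and the list's median log2 ratio was -0.25 before and -0.03 after the GC correction.

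The 7 listed partners of the YTH readers were all detected, beside 55.3% of protein-coding genes. Srsf3, a splicing factor that binds YTHDC1, was at 271 TPM in KO2 and 348 TPM in KO1, and G3bp1, a stress granule protein, at 304 TPM in KO2 and 291 TPM in KO1. With exon-union length Rida, an adaptor between YTHDF2 and an RNA-cleaving complex, was the lowest at 43.4 TPM in KO2 and 57.6 TPM in KO1. The list's median log2 ratio was -0.25 before and -0.03 after the GC correction, and none lay beyond 2-fold, beside 1.06% of all genes tested. Upf1, a helicase of nonsense-mediated decay named after its values were seen, lay beyond 1.5-fold higher in KO2, beside 6.40% of all genes tested. Its log2 ratio was 0.69 (95% interval 0.64 to 0.74) before and 0.07 (0.02 to 0.12) after the correction.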
